A study of Mus musculus with 8 samples.

Results

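The genes described here are 10 members of the BCL2 family, chosen by gene symbol: the survival genes Bcl2, Bcl2l1, Mcl1 and Bcl2a1a, the effector genes Bax and Bak1, and the BH3-only genes Bid, Bcl2l11, Bbc3 and Pmaip1. Probe sets named for 9 of the 10 genes were found, 22 in all, among 45037 probe sets that carried 17097 distinct gene symbols. No probe set carried the name Bax, so that gene was not analysed here. The Meis1 deleted group (4 arrays) held mouse myeloid cells immortalized by retroviral Hoxa9 and a floxed Meis1 cDNA and then treated with 2 µM 4-hydroxytamoxifen. The group with Hoxa9 and Meis1 (4 arrays) held the same kind of cells without that treatment. All cells came from bone marrow of C57BL/6 mice with the Cre-ERT2 recombinase knocked in at Rosa26, and all were cultured with 5 ng/ml interleukin-3 and 10% serum in Iscove's medium. The drug and the Cre activity were present in the deleted group alone and are contained in every difference below. The labels do not state that replicate arrays stem from separate cultures, so the p-values cover only the spread between these arrays, and that spread may be technical.

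BCL2 family proteins decide at the outer mitochondrial membrane whether a cell releases cytochrome c and activates caspases. Survival proteins (BCL2, BCL-XL from Bcl2l1, MCL1 and A1 from Bcl2a1a) bind and restrain the effectors BAX and BAK, which form pores in that membrane when activated. BH3-only proteins (BID, BIM from Bcl2l11, PUMA from Bbc3 and NOXA from Pmaip1) report stress and growth factor loss by occupying the survival proteins or by activating the effectors directly, and in myeloid cells MCL1 and A1 are among the main survival proteins.

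Values are log2 expression values as deposited, 1 per probe set and array. Differences are Meis1 deleted minus Hoxa9 and Meis1 on the log2 scale with limma's standard error, and a change was called at a Benjamini-Hochberg adjusted p under 0.05 over the 27022 probe sets that passed a filter on low values. In the whole comparison 31.3% of those probe sets were called, 14.2% higher and 17.1% lower. Meis1 probe set 1459423 read 5.02 ± 0.07 in Meis1 deleted cells, against 5.00 ± 0.05 in the other group (SD, n = 4 each), with a difference of 0.02 ± 0.05. No source used here says whether its probes match the retroviral cDNA, so it checks neither the deletion nor the labels. Meis1 deleted replicate 1 stood apart: its Gapdh 3′ minus 5′ control difference was 0.72, against -0.07 to 0.04 on the other 7 arrays, and its Actb difference was 0.67, against 0.32 to 0.38. It was the deleted array farthest from the group median for 13 of the 17 member probe sets tested, or 76.5%, and for 52.5% of all probe sets tested. Results are therefore given with and without it. The arrays also fell into sets by the level of the bioB hybridization spike-in, a control transcript added to the cRNA: Meis1 deleted replicates 1, 2 and 3 and Hoxa9 and Meis1 replicates 1 and 2 read 4.04 to 4.28 (set 1), and Meis1 deleted replicate 4 and Hoxa9 and Meis1 replicates 3 and 4 read 6.43 to 6.61 (set 2). Set 2 thus has 1 Meis1 deleted array against 2, with no spread of its own in the deleted arm, so differences within it are given as values and no call is read from them. Set 1 has 3 arrays against 2.

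Of the member probe sets, 17 passed the filter and 5 did not. The deleted group was called higher for 5 of the 17 and lower for 1, which is 35.3%, a share close to the 31.3% of all probe sets. The groups did not overlap for 8 of the 17, against 34.5% of all probe sets tested. With each gene read by its brightest probe set, 3 of 9 genes were higher and 1 was lower, beside 34.7% of 11836 genes, and the median difference was 0.22, beside -0.0044 for all genes. The called members were Bcl2a1a, Bcl2, Pmaip1 and a pair of Bcl2l11 probe sets on the higher side and Mcl1 on the lower side. Without Meis1 deleted replicate 1 the count was 8 higher and 1 lower, beside 36.4% of all probe sets, 15.9% higher and 20.5% lower. In bulk samples, a change in the share of cells of one type and a change in RNA per cell cannot be told apart, and this holds for every difference below.

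**Figure D1:**
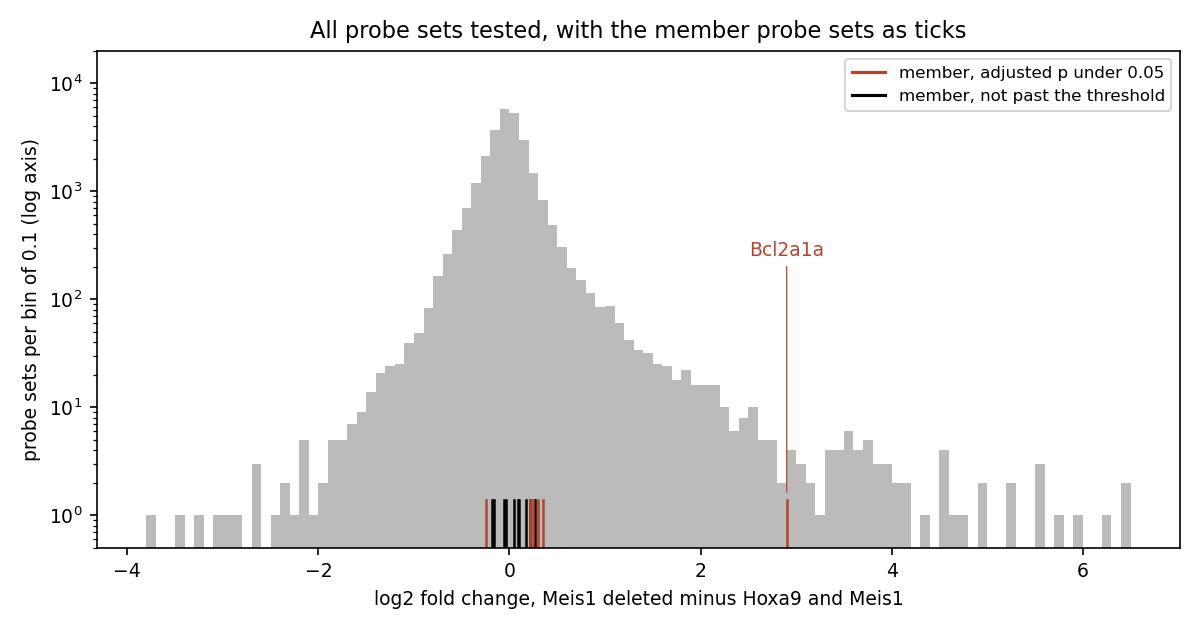
Number of probe sets (vertical axis, log scale) by log2 fold change, Meis1 deleted minus Hoxa9 and Meis1 (horizontal axis), for the 27022 probe sets tested, with the member probe sets marked. Bcl2a1a stands at 2.90, and the other 16 member probe sets lie between -0.25 and 0.35.

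Bcl2a1a, the gene of the A1 survival protein, had by far the largest difference of the members. Probe set 1419004 read 9.72, 9.51, 9.52 and 9.42 in Meis1 deleted cells, against 6.51, 6.63, 6.64 and 6.78 in cells with Hoxa9 and Meis1. All 4 deleted arrays lay above all 4 others, and the spread within a group was small beside the gap between groups. The means were 9.54 ± 0.13 and 6.64 ± 0.11 (SD, n = 4 each), a rise of 2.90 ± 0.08 (95% interval 2.73 to 3.08) or 7.47-fold, with an adjusted p of 9.98e-09. Only 62 of the 27022 probe sets, 0.229%, this one included, rose by as much or more. The rise was 2.84 (adjusted p = 6.72e-09) without Meis1 deleted replicate 1, 3.01 (adjusted p = 7.18e-05) within set 1 and 2.71 within set 2.

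Mouse Bcl2a1 is a small family of near-identical genes, and the suffix of this probe set marks probes shared between transcripts, so signal from the paralogs Bcl2a1b and Bcl2a1d may be included and the value is best read as A1 rather than as one copy. Neither paralog had a probe set of its own name here. The start regions of the copies show how close they are. Below are the RefSeq windows (GRCm38.p6, 250 bases before to 50 after the gene start) of Bcl2a1a at chr9:88956670-88956969 on the plus strand and of Bcl2a1d at chr9:88731801-88732100 on the minus strand, written 5′ to 3′, with capitals at the bases that have no identical partner in the alignment of this pair.
Bcl2a1a: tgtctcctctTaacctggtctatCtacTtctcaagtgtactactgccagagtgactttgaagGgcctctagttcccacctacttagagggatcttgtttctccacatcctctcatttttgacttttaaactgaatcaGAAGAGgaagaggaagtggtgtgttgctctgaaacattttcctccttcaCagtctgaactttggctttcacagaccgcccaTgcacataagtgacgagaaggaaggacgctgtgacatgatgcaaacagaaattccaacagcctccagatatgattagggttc
Bcl2a1d: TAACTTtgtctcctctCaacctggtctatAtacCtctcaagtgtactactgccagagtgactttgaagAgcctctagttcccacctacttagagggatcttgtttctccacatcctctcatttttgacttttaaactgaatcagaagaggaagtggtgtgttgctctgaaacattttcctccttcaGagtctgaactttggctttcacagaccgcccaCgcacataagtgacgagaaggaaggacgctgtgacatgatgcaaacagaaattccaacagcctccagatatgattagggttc
The alignment held 288 identical bases in 306 columns, or 94.1%, with 6 mismatches and 12 gapped columns. The Bcl2a1b window matched the Bcl2a1a window at 254 of 256 bases in their best local alignment. Aligned over the full windows, as for Bcl2a1d, that pair had 254 identical bases in 344 columns, or 73.8%, with 88 gapped columns. The Bcl2a1c window had 182 identical bases in 410 columns over the full windows (44.4%) and 182 of 190 in the best local alignment. Motif letters were searched on both strands in the windows of 9 member genes, in 14 windows in all, since some genes have several starts. Bax was among these genes, while Pmaip1 had no window and was not searched. None of the 7 motifs searched (MEIS, TGACAG; HOX-PBX, TGATTTAT; NF-kB; STAT, TTCNNNGAA; forkhead, GTAAACA; interferon response; E-box, CACGTG) was found in the Bcl2a1a window, which says only that these letters are not in this stretch.

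The promoters of Mcl1 and Bcl2l11 are shown because each gene had a called probe set and a window with a match to one of the motifs searched. A probe set of Mcl1 was called lower, and 2 of the 4 tested probe sets of Bcl2l11, though not its brightest, were called higher. Bcl2l11 has 2 windows, and the one shown holds its only match. Of the other called members, Bcl2a1a and Bcl2 had no match, and Pmaip1 had no window. The RefSeq windows (GRCm38.p6) lie at chr3:95658471-95658770 for Mcl1 and chr2:128125788-128126087 for Bcl2l11, both on the plus strand, with capitals at the NF-kB motif letters, read here on the reverse strand, in Mcl1 and at the forkhead letters GTAAACA in Bcl2l11.
Mcl1: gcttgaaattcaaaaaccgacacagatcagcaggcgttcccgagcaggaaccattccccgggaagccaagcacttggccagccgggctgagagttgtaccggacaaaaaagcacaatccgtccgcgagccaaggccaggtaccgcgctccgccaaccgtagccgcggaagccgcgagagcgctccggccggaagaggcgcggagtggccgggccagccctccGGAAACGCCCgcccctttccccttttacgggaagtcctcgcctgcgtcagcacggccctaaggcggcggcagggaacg
Bcl2l11: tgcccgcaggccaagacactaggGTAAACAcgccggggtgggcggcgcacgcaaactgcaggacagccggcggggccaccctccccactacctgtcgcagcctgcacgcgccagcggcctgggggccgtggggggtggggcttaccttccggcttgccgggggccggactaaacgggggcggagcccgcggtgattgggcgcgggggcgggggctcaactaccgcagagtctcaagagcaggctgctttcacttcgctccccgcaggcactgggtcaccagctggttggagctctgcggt
NF-kB letters were in 3 of the 14 member windows (of Bcl2l1, Mcl1 and Bbc3) and in 1.63% of 32851 promoter windows of the same length. Forkhead letters were in 2 of the 14 (of Bcl2l11 and Bbc3) and in 3.65% of all windows. MEIS letters were in 2 of the 14 (of Bcl2l1 and Bbc3, neither of which was called) and in 19.2% of all windows. E-box letters, which read the same on both strands, were in 2 of the 14 (of Bax and Bbc3) and in 7.15% of all windows. No member window held the HOX-PBX (0.977% of all windows), STAT (8.30%) or interferon response letters (3.44%). A match of letters is a description and no evidence of binding.

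The founding survival gene Bcl2 gave different readings by probe set. Probe set 1457687 read 7.96, 7.98, 7.89 and 8.06 in Meis1 deleted cells, against 7.60, 7.54, 7.75 and 7.62 in cells with Hoxa9 and Meis1. The groups did not overlap, although the lowest deleted array and the highest of the other group lay close together. The difference was 0.35 ± 0.06 with an adjusted p of 0.00187, and 0.35 without Meis1 deleted replicate 1. It was 0.37 (adjusted p = 0.0183) within set 1 and 0.38 within set 2. Probe set 1422938 read 5.64, 6.10, 6.02 and 5.98 in Meis1 deleted cells, against 6.06, 6.14, 6.05 and 6.13, with overlapping groups. Its difference was -0.16 ± 0.09 (95% interval -0.37 to 0.05, adjusted p = 0.227), and -0.06 without Meis1 deleted replicate 1, which was the lowest array. The mean of both Bcl2 probe sets differed by 0.09 with an adjusted p of 0.232, so the call for Bcl2 rests on the brighter of them.

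Mcl1, whose short-lived protein holds BAK in check, was the only member with a called fall. Its brightest probe set, 1448503, read 11.51, 11.48, 11.53 and 11.66 in Meis1 deleted cells, against 11.78, 11.76, 11.80 and 11.82 in cells with Hoxa9 and Meis1. The groups did not overlap, and the arrays with Hoxa9 and Meis1 were tightly grouped. The difference was -0.25 ± 0.05 with an adjusted p of 0.00468, or 0.842 of the level in cells with Hoxa9 and Meis1. It was -0.24 (adjusted p = 0.00623) without Meis1 deleted replicate 1, -0.27 (adjusted p = 0.0341) within set 1 and -0.16 within set 2. Probe set 1416881 read 9.86, 10.25, 10.13 and 10.23 in Meis1 deleted cells, against 10.32, 10.30, 10.26 and 10.31, with no overlap and a difference of -0.18 ± 0.08 that did not pass (adjusted p = 0.135). It was -0.09 (adjusted p = 0.147) without Meis1 deleted replicate 1, the lowest array. Probe set 1416880 had overlapping groups and differed by -0.05 ± 0.06 (95% interval -0.20 to 0.09, adjusted p = 0.575). Its difference was -0.11 (adjusted p = 0.0683) without Meis1 deleted replicate 1, which was the highest array. All 3 probe sets thus had negative differences, of which 1 was called.

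Bcl2l1, the gene of BCL-XL, was not called. Probe set 1420888 read 8.09, 8.03, 8.0 and 7.98 in Meis1 deleted cells, against 7.93, 7.87, 7.98 and 7.94 in cells with Hoxa9 and Meis1. The groups met almost at one value without overlapping. The difference was 0.10 ± 0.05 (95% interval -0.01 to 0.20) and did not pass (adjusted p = 0.151), also not without Meis1 deleted replicate 1 (0.07, adjusted p = 0.225). The other 3 Bcl2l1 probe sets read 3.29 to 4.18 on the 8 arrays, under the filter, and were not tested.

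**Figure D2:**
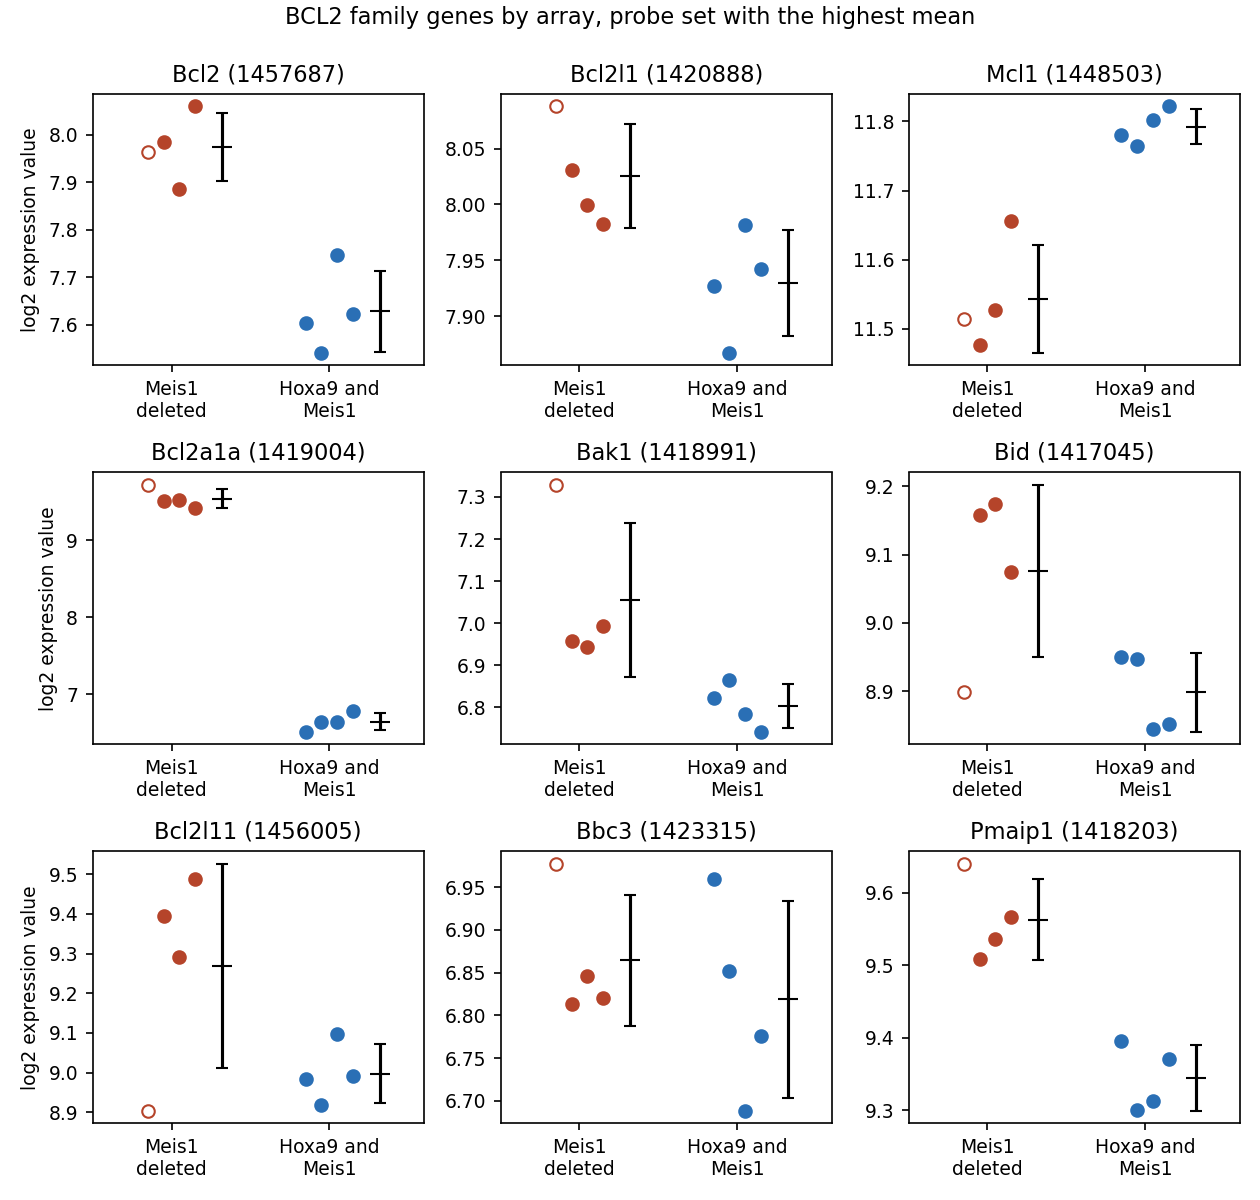
Log2 expression value (vertical axis, own range in each panel) on every array for the brightest probe set of each of the 9 members, Meis1 deleted on the left and Hoxa9 and Meis1 on the right, with bars for the mean ± SD (n = 4) and an open circle for Meis1 deleted replicate 1. The groups are apart for Bcl2a1a, Bcl2, Mcl1, Pmaip1, Bak1 and Bcl2l1, and overlap for Bid, Bcl2l11 and Bbc3.

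Bak1 encodes the effector BAK, which sits in the mitochondrial membrane and forms pores when released from MCL1 and BCL-XL. Probe set 1418991 read 7.33, 6.96, 6.94 and 6.99 in Meis1 deleted cells, against 6.82, 6.86, 6.78 and 6.74 in cells with Hoxa9 and Meis1. The groups did not overlap, but Meis1 deleted replicate 1 lay far above the other deleted arrays and widened the spread. The difference was 0.25 ± 0.09 with an adjusted p of 0.0510, just outside the threshold. Without Meis1 deleted replicate 1 it was smaller, 0.16 ± 0.05, and was called (adjusted p = 0.0212), and without Meis1 deleted replicate 3 it was 0.29 with an adjusted p of 0.0499. The dim probe set 1425716, whose probes are shared between transcripts, read 4.19 to 4.48 in Meis1 deleted cells, against 4.11 to 4.48 in cells with Hoxa9 and Meis1, with a difference of 0.09 ± 0.09 (95% interval -0.12 to 0.30, adjusted p = 0.494). That difference was 0.15 (adjusted p = 0.201) without Meis1 deleted replicate 1.

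Among the BH3-only genes, Pmaip1, the gene of NOXA, which binds MCL1 and A1, rose. Probe set 1418203 read 9.64, 9.51, 9.54 and 9.57 in Meis1 deleted cells, against 9.40, 9.30, 9.31 and 9.37 in cells with Hoxa9 and Meis1. The groups did not overlap and each spanned a narrow range. The difference was 0.22 ± 0.05 with an adjusted p of 0.00723, and 0.19 (adjusted p = 0.00822) without Meis1 deleted replicate 1. Within set 1 it was 0.21 (adjusted p = 0.115), close to the value on all arrays but not called on 5 arrays, and within set 2 it was 0.23.

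Bcl2l11, the gene of BIM, which engages every survival protein of the family, had 5 probe sets, of which 4 passed the filter. Probe set 1435448 read 8.46, 8.44, 8.47 and 8.52 in Meis1 deleted cells, against 8.24, 8.03, 8.22 and 8.19 in cells with Hoxa9 and Meis1. The groups did not overlap, and the difference of 0.30 ± 0.06 was called (adjusted p = 0.00271). It was 0.31 (adjusted p = 0.00319) without Meis1 deleted replicate 1. Within set 1 it was 0.32 and not called (adjusted p = 0.0519), and within set 2 it was 0.31. The brightest, 1456005, read 8.90, 9.39, 9.29 and 9.49 in Meis1 deleted cells, against 8.98, 8.92, 9.10 and 8.99. Here Meis1 deleted replicate 1 lay below the whole other group, while the remaining deleted arrays lay above it. The difference was 0.27 ± 0.11 (adjusted p = 0.105) on all arrays and 0.39 ± 0.06 (adjusted p = 0.00110) without that array, and within set 1 and set 2 it was 0.25 and 0.44. Probe set 1435449 read 7.41, 7.58, 7.68 and 7.77 in Meis1 deleted cells, against 7.27, 7.37, 7.55 and 7.40, with a difference of 0.21 ± 0.09 (adjusted p = 0.0991) that was called without Meis1 deleted replicate 1 (0.28, adjusted p = 0.0170). Probe set 1456006 read 5.59, 5.66, 5.39 and 5.55 in Meis1 deleted cells, against 5.38, 5.12, 5.31 and 5.40, and differed by 0.24 ± 0.08 (adjusted p = 0.0439). That last call was fragile, since it was lost when any of 6 of the 8 arrays was left out, with adjusted p-values of 0.0559 to 0.111, and held without Meis1 deleted replicate 3 (0.0234) or Hoxa9 and Meis1 replicate 4 (0.0497). The fifth probe set, 1426334, read 3.84 to 4.49 over the 8 arrays, under the filter.

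Bid encodes a BH3-only protein that caspase-8 cuts, which joins the death receptor route to mitochondria. Probe set 1417045 read 8.90, 9.16, 9.17 and 9.07 in Meis1 deleted cells, against 8.95, 8.95, 8.84 and 8.85 in cells with Hoxa9 and Meis1. The groups overlapped through Meis1 deleted replicate 1 alone. The difference was 0.18 ± 0.07 (adjusted p = 0.0763) on all arrays and 0.24 ± 0.05 (adjusted p = 0.00516) without that array. Probe set 1448560 read 6.37, 7.16, 7.28 and 6.90 in Meis1 deleted cells, against 7.10, 7.01, 6.79 and 6.94, with a difference of -0.03 ± 0.18 (adjusted p = 0.911), and its sign turned to 0.15 (adjusted p = 0.277) without Meis1 deleted replicate 1. The dimmest, 1447873, read 5.30, 4.26, 3.91 and 4.36 in Meis1 deleted cells, against 3.89, 3.84, 3.96 and 3.94, and was under the filter. In those 3 probe sets Meis1 deleted replicate 1 was the lowest deleted array for 2 and the highest for 1.

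Bbc3, the gene of PUMA, a direct target of p53 in other settings, had the smallest difference of the 9 genes by their brightest probe sets. Probe set 1423315 read 6.98, 6.81, 6.85 and 6.82 in Meis1 deleted cells, against 6.96, 6.85, 6.69 and 6.78 in cells with Hoxa9 and Meis1. The groups overlapped over most of their range, and the difference was 0.05 ± 0.07 (95% interval -0.11 to 0.20, adjusted p = 0.654). It was 0.0076 (adjusted p = 0.940) without Meis1 deleted replicate 1. A p that misses the threshold does not show that the levels were equal, and the interval bounds any change at that probe set.

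**Figure D3:**
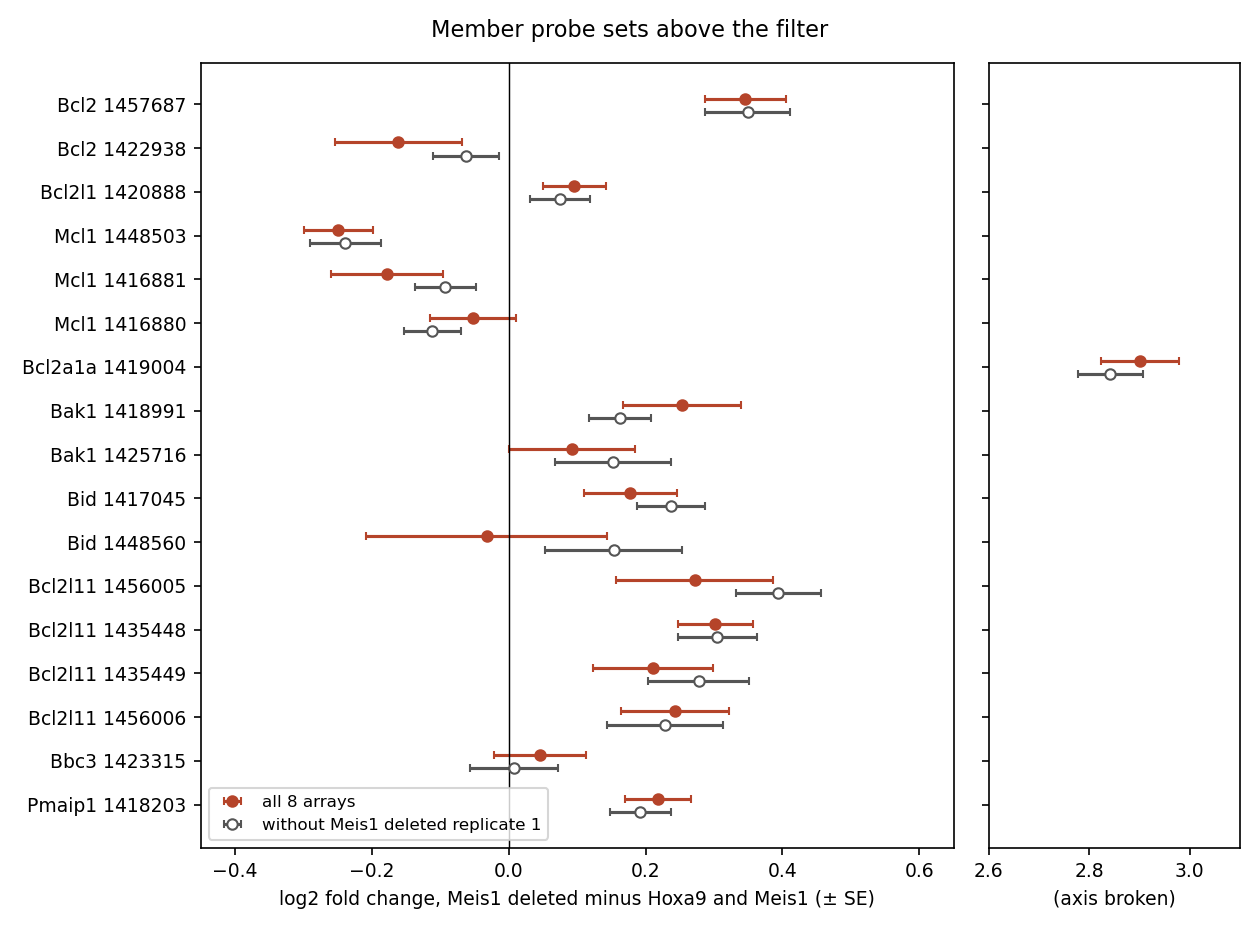
Log2 fold change, Meis1 deleted minus Hoxa9 and Meis1, with its standard error (horizontal axis, broken between the panels) for each of the 17 member probe sets tested, on all 8 arrays (filled) and without Meis1 deleted replicate 1 (open). Bcl2a1a lies alone at 2.90, the Mcl1 probe sets lie left of 0, and the Bcl2l11 probe sets lie right of 0 with and without that array.

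Genes with a pattern across the 8 arrays most like that of Bcl2a1a were sought among 11827 other genes by the root mean square difference of values centred on each gene's mean. The nearest were Dab2, an endocytic adaptor, at 0.123, Klk1b1 at 0.123 and Gm9706 at 0.128. Dab2 averaged 9.72 in Meis1 deleted cells, against 6.77 in cells with Hoxa9 and Meis1. For Bcl2 probe set 1457687 the nearest were Ap5z1 at 0.036, Pik3ap1, a signalling adaptor of phosphoinositide 3-kinase, at 0.040 and Degs1, a desaturase of ceramide synthesis, at 0.044.

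The other BCL2 family genes were read by 1 probe set each, the brightest. Of the 10 tested, 3 were higher and 3 lower, where 17.7% of all genes tested were called higher and 17.0% lower, and the median difference was -0.05. Bnip3, a hypoxia-induced mitochondrial protein that promotes mitophagy, fell most: it averaged 10.61 ± 0.06 in Meis1 deleted cells, against 11.78 ± 0.03 in cells with Hoxa9 and Meis1 (difference -1.17 ± 0.05, adjusted p = 1.11e-07). Its relative Bnip3l fell by 0.55 ± 0.06 (adjusted p = 0.000131), and Bcl2l14 fell by 0.27 ± 0.08 (adjusted p = 0.0285). Bcl2l2, the gene of the survival protein BCL-W, rose by 0.19 ± 0.06 (adjusted p = 0.0302), but the mean of its probe sets differed by -0.00264. The 2 other called genes, Bad and Bmf, both BH3-only, were higher by 0.19 and 0.29. The count was 2 without Meis1 deleted replicate 2 and 3 without Hoxa9 and Meis1 replicate 3. It was 4 without Meis1 deleted replicate 3 or 4. Without Hoxa9 and Meis1 replicate 2 or 4, 1 gene was called higher and 3 lower.

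In the mitochondrial death pathway list, 4 of 16 genes tested were higher and 4 lower, beside 34.7% of all genes called in either direction, with a median of 0.01. The falls were in genes of DNA cutting and of caspases. Dffb, the caspase-activated DNase, read 5.23 ± 0.18 in Meis1 deleted cells, against 5.71 ± 0.10 in cells with Hoxa9 and Meis1 (difference -0.48 ± 0.09, adjusted p = 0.00355), and the mitochondrial nuclease gene Endog differed by -0.38 ± 0.05 (adjusted p = 0.000560). Casp2 differed by -0.23 ± 0.06 (adjusted p = 0.0114) and Casp6 by -0.20 ± 0.05 (adjusted p = 0.0155). Xiap and Birc3, inhibitors of apoptosis, and Htra2 and Aifm1, mitochondrial proteins released during death, were higher by 0.13 to 0.27. The adaptor Apaf1, which forms the apoptosome, differed by 0.10 ± 0.04 (adjusted p = 0.0858), and cytochrome c (Cycs) by -0.05 ± 0.05 (adjusted p = 0.428). The count of 8 called genes was 7 without Meis1 deleted replicate 1 and 4 or 5 without any other single array.

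The death receptor pathway, which meets the BCL2 family at Bid, had 4 of 8 genes tested higher and 0 lower, with a median of 0.11, where 34.7% of all genes tested were called and 17.7% were called higher. The receptor gene Fas read 5.73 ± 0.16 in Meis1 deleted cells, against 5.11 ± 0.08 in cells with Hoxa9 and Meis1 (difference 0.62 ± 0.08, adjusted p = 0.000449). The ligand gene Tnfsf10 (TRAIL) rose by 0.33 ± 0.05 (adjusted p = 0.000535), Tnf by 0.25 ± 0.07 (adjusted p = 0.0217) and the adaptor gene Fadd by 0.17 ± 0.05 (adjusted p = 0.0311). Casp8, whose product cuts BID, differed by 0.04 ± 0.07 (adjusted p = 0.717). The count was 2 without Hoxa9 and Meis1 replicate 2 or replicate 3. It was 3 without Hoxa9 and Meis1 replicate 1 or Meis1 deleted replicate 3. Without Meis1 deleted replicate 2 or 4, 1 gene was called lower.

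Of 13 tested regulators of BCL2 family genes and proteins, 2 were higher and 2 lower, with a median of -0.03, a share below the 34.7% of all genes called. Mdm2, the ubiquitin ligase that degrades p53, fell by 0.36 ± 0.04 (adjusted p = 0.000277). Stat5a, which carries interleukin-3 signals to the nucleus, rose by 0.34 ± 0.10 (adjusted p = 0.0311), and by 0.23 without Meis1 deleted replicate 1. The kinase gene Gsk3b rose by 0.28 ± 0.09 (adjusted p = 0.0349), and the forkhead factor gene Foxo3 fell by 0.17 ± 0.06 (adjusted p = 0.0499). The MCL1 ubiquitin ligase genes Huwe1 and Fbxw7 differed by 0.02 ± 0.06 and -0.03 ± 0.06 and were not called (adjusted p = 0.839 and 0.704). The count of 4 called genes was 1 without Hoxa9 and Meis1 replicate 2 or 3, and 2 without Hoxa9 and Meis1 replicate 1 or 4 or Meis1 deleted replicate 2 or 3.

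**Figure D4:**
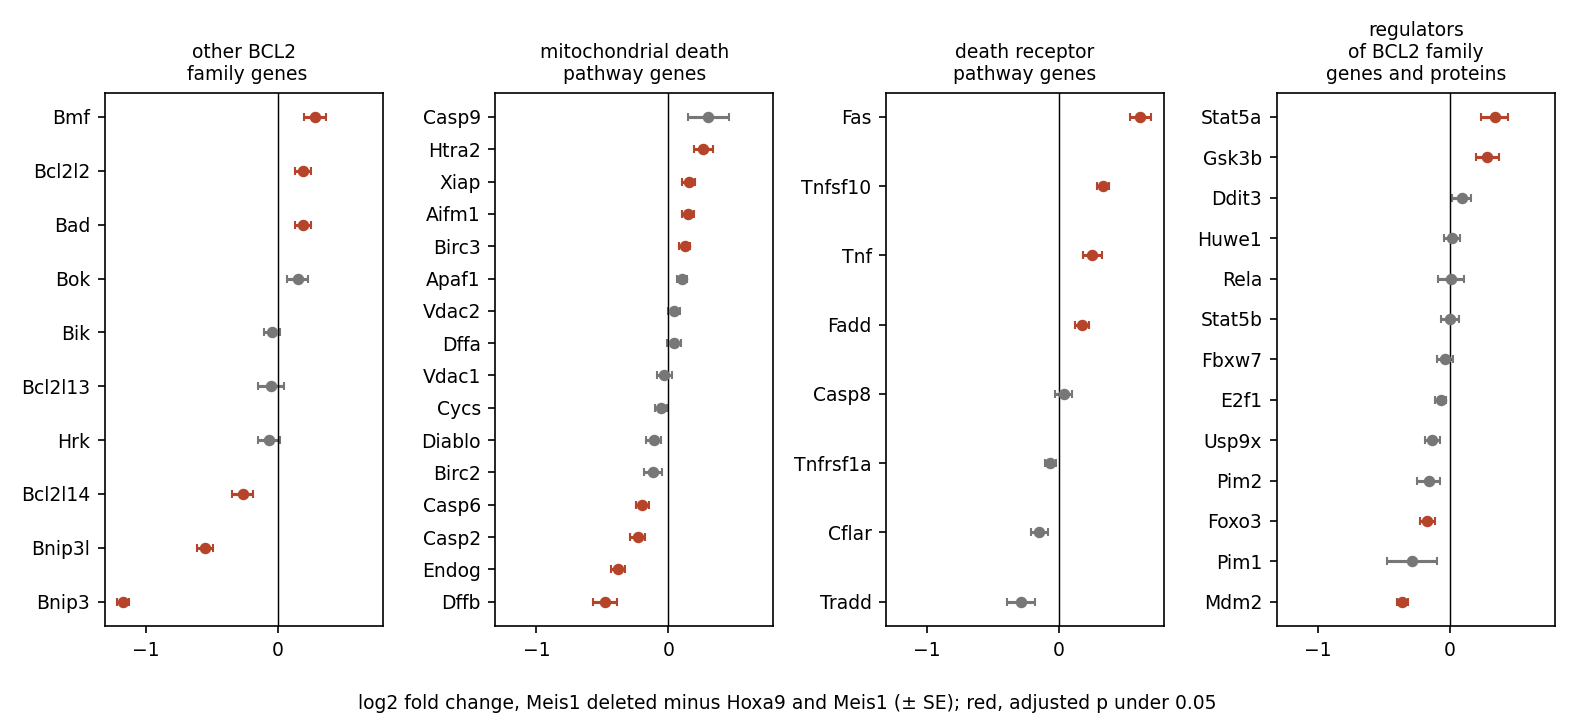
Log2 fold change, Meis1 deleted minus Hoxa9 and Meis1, with its standard error (horizontal axis) for each tested gene of the other BCL2 family, mitochondrial death, death receptor and regulator lists, with red for an adjusted p under 0.05. Bnip3 lies farthest left at -1.17 and Fas farthest right at 0.62, and most genes lie within 0.4 of 0.

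Markers of myeloid maturation also differed between the groups. The marker counts stand beside 17.7% of all genes tested called higher and 17.0% called lower. Of 8 macrophage markers, 7 were higher and 1 lower, and the log2 of their summed level was 12.98 to 13.02 in Meis1 deleted cells, against 11.75 to 11.83 in cells with Hoxa9 and Meis1. Mrc1 rose by 6.43 ± 0.08 (adjusted p = 1.76e-10) and Fcgr1 by 3.96 ± 0.06 (adjusted p = 4.82e-10). The lower marker was Cd14, with a difference of -0.41 ± 0.04 (adjusted p = 9.58e-05). Late neutrophil markers were higher for 7 of 8 and lower for 1, with summed levels of 14.49 to 14.51 in Meis1 deleted cells, against 13.65 to 13.72 in cells with Hoxa9 and Meis1, and Ltf rose by 2.58 ± 0.05 and Mmp8 by 2.00 ± 0.05. Cxcr2 was the lower one, with a difference of -0.25 ± 0.07 (adjusted p = 0.0244). Stem and progenitor markers were lower for 4 of 5 and higher for 0, with summed levels of 8.16 to 8.58 in Meis1 deleted cells, against 8.77 to 8.83, and Cd34 fell by 1.87 ± 0.10 and Erg fell by 1.35 ± 0.07. The part of these shifts in the rise of Bcl2a1a or in the other members' differences was not tested.

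Of the general myeloid markers, 8 of 8 with a named probe set were above the filter, which megakaryocyte and erythroid markers with a named probe set passed too. The myeloid markers had 3 higher and 4 lower and summed levels of 13.74 to 13.79 in Meis1 deleted cells, against 13.79 to 13.83. Mpo rose by 0.59 ± 0.08 and Cd33 fell by 0.96 ± 0.05. Megakaryocyte markers had 1 of 3 higher (the platelet factor gene Pf4, 3.84 ± 0.06) and 0 lower. Mast cell and basophil markers had 1 of 2 higher (Ms4a2, 0.20 ± 0.07) and 1 lower (Mcpt8, -0.74 ± 0.13). Erythroid markers had 1 of 3 higher (Epor, 0.22 ± 0.07). Of the B cell and T cell markers, 1 each was tested and 0 were called, and all 4 stromal markers were under the filter.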

How the data were processed

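Total RNA (100 ng per array) from 4 Meis1 deleted samples and 4 samples with Hoxa9 and Meis1 was hybridised to 1-colour Affymetrix arrays, and groups were taken from the labels. The authors deposited 1 value per probe set and array, taken as log2 from the range of 2.65 to 13.2. The submitters' processing notes name MAS5 without saying what it was used for, and genome build and summarisation are not given in the sources used. GEO's platform annotation gave 1 symbol to 28898 probe sets, several to 551 and none to 15588. After 104 control probe sets and the lowest 40% by mean over the 8 arrays (below 4.29) were left out, 27022 probe sets were fitted with limma 3.58.1 (lmFit and eBayes, R 4.3.3), values used as deposited, with Benjamini-Hochberg adjustment and a threshold of 0.05. A gene with several probe sets was read by the one with the highest mean. The fit was tested on simulated data.

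The members and lists were chosen with earlier results of these data known. The rule for naming took all members, up to 4 genes with the smallest p of each pathway list and up to 2 of each marker list among those that passed, and the 3 genes nearest to each of the 2 members with the largest called differences. Apaf1, Cycs, Xiap, Birc3, Htra2, Aifm1, Casp8, Bad, Bmf, Huwe1, Fbxw7, Cd14 and Cxcr2 were chosen after their values were seen. Differences in RNA controls were tested by exact permutation (two-sided, 70 assignments, smallest possible p 0.0286). Promoter windows came from a RefSeq table of GRCm38.p6, searched and aligned with Python 3.11.15 and Biopython 1.88, and matplotlib 3.10.9 drew the plots. Alternatives covered filters, offsets, scaling, probe set summaries, eBayes options, array weights, blocks and single arrays left out. The sets by bioB level are defined from a control on the arrays, since no label gives a batch. For arrays, their number limits the precision.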

Additional observations from a re-analysis of the deposited data

Results flagged for a closer look

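In 10 of 106 groups of 4 arrays checked, 1 array lay far from the other 3 by Dixon's criterion, where chance alone gives about 1 in 20. Meis1 deleted replicate 1 was the array in 5 of the 10. It read 7.33 for Bak1 probe set 1418991, where the other deleted arrays read 6.94 to 6.99. For Stat5a it read 7.78, against 7.31 to 7.34. For the markers Mrc1 and Mmp8 it read 11.19, against 10.88 to 10.91, and 10.69, against 10.82 to 10.84. Its Gapdh 3′ minus 5′ difference was 0.72, against -0.07 to 0.04.

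Meis1 deleted replicate 4 read 6.43 for the bioB spike-in, where the other deleted arrays read 4.04 to 4.14, and 3.88 for Cd34, against 4.03 to 4.05. In cells with Hoxa9 and Meis1, replicate 4 read 6.03 for Bcl2l14, where the others read 5.70 to 5.75. Replicate 1 of that group read 6.99 for Stat5a, against 7.13 to 7.14, and replicate 2 read 7.62 for Mcpt8, against 7.76 to 7.78.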

How the results depend on the processing

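Bcl2a1a, Bcl2, Mcl1, Pmaip1 and Bcl2l11 probe set 1435448 kept their direction in every alternative run. With set 2 left aside, they passed the test in all runs but those given next. Set 2 has 1 Meis1 deleted array against 2, the lone array being assumed to vary like the others, and set 1 has 3 against 2. Only differences are therefore given within set 2. Bcl2 was 0.092 (adjusted p = 0.232) as a mean of its probe sets. Within set 1, Pmaip1 was 0.21 (adjusted p = 0.115) and Bcl2l11 probe set 1435448 was 0.32 (0.0519). Within set 2 the differences were 0.38 for Bcl2, -0.16 for Mcl1, 0.23 for Pmaip1 and 0.31 for Bcl2l11 probe set 1435448. Bak1 passed at 0.25 with the lowest 60% left out (0.0427), 75th percentile scaling (0.0480) or 1 probe set a gene (0.0359), at 0.24 with quantile normalization (0.0461), at 0.17 as a mean of probe sets (0.0361), at 0.16 with array weights (0.0298) and at 0.16 with the bioB set as a block on the 7 arrays without Meis1 deleted replicate 1 (0.0166), a setting chosen after seeing the data. Bid passed at 0.23 with array weights and 0.22 with that last setting. Bcl2l11 passed at 0.26 as a mean, 0.36 with weights and 0.41 with that last setting, and its value within set 2 was 0.44. Signs turned for Bbc3 (-0.027 within set 1, -0.010 with that last setting), Bak1 probe set 1425716 (-0.063 within set 1), Bcl2l2 (-0.00264 as a mean of probe sets), the Actb control difference (-0.0019 without Meis1 deleted replicate 1) and Bid probe set 1448560 (0.16 with weights, 0.033 within set 2, 0.15 without Meis1 deleted replicate 1, 0.015 without Hoxa9 and Meis1 replicate 1, 0.11 with that last setting). The cause was not tested. Called probe sets numbered 4474 with 1 probe set a gene and 4479 as means, where fewer features were tested, and 3812 and 4362 within sets 1 and 2, where fewer arrays were used. Member probe sets called were 10 with array weights, where 39.4% of all probe sets were called, and 3 within set 1, where 14.1% were called. List counts within set 1 were 2 for other BCL2 family genes, 1 for the mitochondrial pathway, 2 for death receptors and 1 for regulators. With single arrays left out, called probe sets ranged over 6736 to 9825, called member probe sets over 5 to 9, Bak1 over 0.16 to 0.29, Bid over 0.15 to 0.24, Bcl2l11 over 0.20 to 0.39, Bid probe set 1448560 over -0.15 to 0.15, the Actb control over -0.0019 to 0.11, and list counts over 2 to 6, 4 to 7, 2 to 5 and 1 to 4 in the same order. Same-numbered arrays correlated at -0.10, 0.28, -0.14 and 0.21 in their deviations from the group means. Values of mixed sign on so few arrays do not decide whether same-numbered arrays were paired, and the labels give only a number. With the replicate block 7928 probe sets were called and 5 member probe sets were higher and 1 lower, Bcl2l11 probe set 1456006 lost its call (0.0805), probe set 1435449 gained one (0.0441), and 5 mitochondrial pathway genes were called. With the replicate number as key, 1 of 4 deleted arrays and 0 of 4 others correlated best with their own number. Dim probe sets near 4 lie close to control probe sets without a target, which limits what they show.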
